A study of Rattus norvegicus with 12 samples.

Results

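In the liver of hypothyroid-orchidectomized (TXOX) rats, 23 array probes kept their estradiol (E2) response when growth hormone (GH) was given with it and stood near the TXOX level when GH was given alone. They were chosen from the deposited log2 ratios to TXOX: a row needed 3 or more measured arrays out of 4 in each treatment, mean ratios in TXOXE2GH and TXOXE2 of the same sign and each at least 0.58 in size (1.5-fold), and a mean ratio in TXOXGH between -0.3 and 0.3. Of 22163 deposited rows, 11478 had enough values, and 23 of these (0.2%) met the rule, 4 of them raised by E2 (0.0348%) and 19 lowered (0.166%). "Raised" and "lowered" below give the sign of the mean ratio in TXOXE2 and name no test. Because the 3 treatment ratios chose the probes, these ratios and the differences formed from them are given as descriptions.

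All animals were male Sprague-Dawley rats, 3 months old, made hypothyroid with methimazole (0.05%, for 5 weeks from postnatal day 59 to day 94) and castrated. TXOXE2GH rats received E2 benzoate for 27 days together with recombinant human GH for the last 7 of them. TXOXE2 rats received E2 benzoate alone (50 µg/kg, 5 days per week, 27 days), TXOXGH rats GH alone (0.3 mg/kg per day, 7 days), and TXOX rats vehicle. Livers were taken 24 h after the last E2 injection and 12 h after the last GH injection, and each of 4 arrays per treatment carried the treated liver in Cy5 and a TXOX liver in Cy3. One field of the labels gives the treated group's name to both channels, while the treatment field gives vehicle (TXOX) for Cy3; Cy3 was taken as TXOX, and every ratio below rests on that reading. No array had the dyes exchanged, so in a ratio to TXOX a difference between dyes and an effect of treatment cannot be told apart, whereas between treatments the dye is the same. All groups, TXOX included, were hypothyroid and castrated, and no intact or euthyroid animal was on these arrays.

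E2 acts on the liver through its nuclear receptor in hepatocytes and also by changing how the pituitary releases GH. GH acts on hepatocytes through its receptor, the kinase JAK2 and the transcription factor STAT5. The pattern of STAT5 activation over time sets much of the difference between male and female rat liver, and E2 can dampen this signal through SOCS proteins. In hypothyroid rats the pituitary makes little GH, so a response to E2 that is present both without and with injected GH is of interest as one that the GH given at the same time did not remove. The probes are 70-base oligonucleotides and are given by their array names: no source used here pairs these names with genes, so the labelled tissue was not checked against marker genes. In whole liver, fewer cells of a type and less RNA per cell cannot be told apart.

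An E2 response that stood apart from GH seldom kept a ratio of 0.58 or more in size when GH was given. Among the rows with enough values, 644 reached 0.58 in TXOXE2, and 317 of these had a TXOXGH ratio inside the window. In TXOXE2GH, 23 of the 317 kept their sign and reached 0.58, 239 kept their sign at a smaller size, and 55 had the opposite sign. A mean TXOXE2GH ratio between -0.3 and 0.3 was found for 194 of the 317. In number, 4 of 183 raised rows (2.19%) and 19 of 134 lowered rows (14.2%) met the rule. The median ratio of the 183 raised rows was 0.15 in TXOXE2GH and 0.68 in TXOXE2, and that of the 134 lowered rows was -0.32 in TXOXE2GH and -0.68 in TXOXE2. All 317 rows were chosen by a large TXOXE2 ratio, and the part of this choice in the smaller TXOXE2GH ratios was not tested. The median TXOXGH ratio of these rows also differed in sign, at 0.14 for the raised and -0.17 for the lowered ones.

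**Figure D1:**
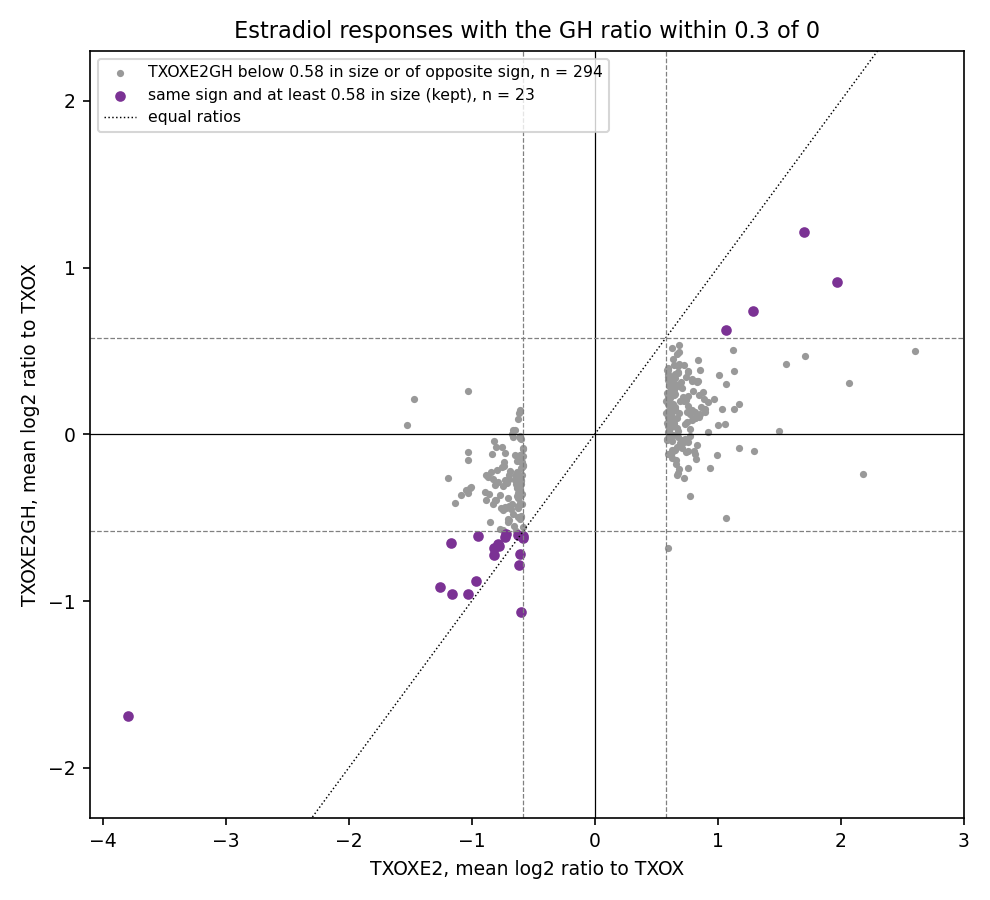
Mean deposited log2 ratio to TXOX in TXOXE2GH (vertical axis) against TXOXE2 (horizontal axis) for the 317 rows whose TXOXE2 ratio reached 0.58 in size with TXOXGH between -0.3 and 0.3. Each point is 1 row; the 23 kept rows are purple, dashed lines mark 0.58 in size and the dotted line equal ratios, and most grey points lie close to 0 on the vertical axis, on the raised side more than on the lowered side.

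Kept raised rows all had a TXOXE2 ratio above 1, while kept lowered rows were spread over the whole range. Of the raised rows, 0 of 136 with a ratio between 0.58 and 0.8 were kept, 0 of 25 between 0.8 and 1, 2 of 15 between 1 and 1.5 and 2 of 7 from 1.5 upward. Of the lowered rows, 10 of 98 with a ratio between 0.58 and 0.8 in size were kept, 4 of 19 between 0.8 and 1, and 4 of 15 between 1 and 1.5. Only 2 lowered rows went further, and 1 of them was kept. Bins with under 20 rows are thinly filled, and no order is read from them.

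The opposite case was more frequent in the same table. A GH ratio of at least 0.58 in size with TXOXE2 inside the window was found for 136 rows, and 68 of these (50%) kept it in TXOXE2GH, against 23 of 317 (7.26%) for E2. The median TXOXE2GH ratio was 73.2% of the TXOXGH ratio in those 136 rows and 31.1% of the TXOXE2 ratio in the 317. The TXOXE2GH arrays are shared by both counts, and arrays of TXOXE2GH and TXOXGH with the same replicate number deviated together (correlations of 0.306 to 0.453), which those of TXOXE2GH and TXOXE2 did not (-0.148 to 0.108). Medians over the 48 printed blocks of the slide also varied most in TXOXE2 (SD 0.215), against 0.125 in TXOXGH and 0.0839 in TXOXE2GH. The part of the pairing or of the blocks in the difference between the counts was not tested.

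Further rows had E2 responses of the same sign in TXOXE2GH and TXOXE2 but were not free of GH. Of 130 rows that reached 0.58 with the same sign in both, 107 had a TXOXGH ratio outside the window, and in 62 of these GH alone reached 0.58 in the same direction. The thresholds cut through a continuous range. The kept probe closest to the fold limit had -0.62 in TXOXE2GH and -0.58 in TXOXE2, the next row below it -0.579 in TXOXE2GH and -0.64 in TXOXE2, and 25 rows with TXOXGH in the window had their smaller ratio between 0.5 and 0.58. At the limit for GH, the kept probe nearest the edge had -0.29475 in TXOXGH and the nearest row outside it 0.303.

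The largest kept response was that of Rn30001789, which had the lowest TXOXE2 ratio of all 11478 rows. Its log2 ratios were -1.10, -1.64, -2.62 and -1.41 on the TXOXE2GH arrays and -4.35, -2.82, -3.85 and -4.17 on the TXOXE2 arrays. On the TXOXGH arrays they were 0.31, -0.41, -0.31 and 0.16. All TXOXE2GH values lay below all TXOXGH values and above all TXOXE2 values, so the probe was lowered less when GH was given. The mean ratios were -1.69 ± 0.66 in TXOXE2GH (3.23-fold lower), -3.80 ± 0.68 in TXOXE2 (13.9-fold lower) and -0.06 ± 0.35 in TXOXGH (SD, n = 4 each). Only 3 rows had a lower ratio in TXOXE2GH.

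The Cy5 signal of Rn30001789 was above local background on all 4 TXOXE2GH and all 4 TXOXGH arrays but on none of the TXOXE2 arrays, so its level in TXOXE2 liver was not measured and the TXOXE2 fold above is only a value as deposited. A spot counted as above local background in a channel when over 50% of its pixels were brighter than the background by 2 SD. In the ratios derived again from the scanner intensities with another background correction, the probe had -1.75 in TXOXE2GH and -4.45 in TXOXE2. On that scale the dimmest signal that passed on each array was filled in for the TXOXE2 signal where this was dimmer. TXOXE2 liver then came out 15.5-fold lower than TXOX liver, and the Cy5 level 5.08-fold higher on TXOXE2GH than on TXOXE2 arrays. These filled-in folds are no strict limits, since a spot can fail the pixel test at a level above the dimmest that passed. They hold for that processing alone, on arrays without a dye exchange, and set no limit on the deposited ratios, whose fold was smaller.

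Rn30019192 had nearly the same ratio with and without GH. Its values were -0.96, -1.14, -0.57 and -1.15 in TXOXE2GH, -1.13, -1.11, -1.20 and -1.21 in TXOXE2, and -0.08, -0.08, 0.08 and 0.16 in TXOXGH. Both groups given E2 lay wholly below TXOXGH, and they overlapped each other. The means were -0.96 ± 0.27 in TXOXE2GH, -1.16 ± 0.05 in TXOXE2 and 0.02 ± 0.12 in TXOXGH (SD, n = 4 each), so that TXOXE2GH reached 82.5% of the TXOXE2 ratio. The third lowered probe had the same form, with -1.14, -0.65, -1.01 and -1.03 in TXOXE2GH, -1.19, -0.89, -1.06 and -0.99 in TXOXE2, and -0.11, -0.09, -0.19 and 0.02 in TXOXGH. These 2 probes were bright, with mean intensities at percentiles 97.6 and 97.2 of the 11478 rows, and above local background in both channels on all 12 arrays.

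Of the raised probes, Rn30002695 had the largest kept ratio and a wide spread. Its values were 1.15, 0.52, 2.38 and 0.80 in TXOXE2GH and 2.48, 1.76, 1.40 and 1.17 in TXOXE2. In TXOXGH they were 0.12, -0.40, 0.91 and 0.22. TXOXE2 lay wholly above TXOXGH, while the TXOXE2GH values overlapped both other groups, and the highest TXOXE2GH and TXOXGH values came from the arrays with the same replicate number. The means were 1.21 ± 0.82 in TXOXE2GH, 1.70 ± 0.58 in TXOXE2 and 0.21 ± 0.54 in TXOXGH (SD, n = 4 each).

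Rn30009375 had 0.18, 1.83, 1.13 and 0.52 in TXOXE2GH and 2.33, 1.67, 1.53 and 2.36 in TXOXE2, with 1.04, -0.23 and -0.13 on the 3 TXOXGH arrays that gave a value. Here too TXOXE2 lay wholly above TXOXGH and TXOXE2GH overlapped both. The means were 0.91 ± 0.73 in TXOXE2GH (SD, n = 4), 1.97 ± 0.43 in TXOXE2 (SD, n = 4) and 0.23 ± 0.71 in TXOXGH (SD, n = 3). The probe was dim, at percentile 20, and above local background in both channels on 6 of 12 arrays. The other 2 raised probes had mean ratios of 0.74 and 0.63 in TXOXE2GH and 1.29 and 1.07 in TXOXE2, and in each the TXOXE2GH values overlapped both other groups. Only 1 of the 4 raised probes had a value on all 12 arrays, against 18 of the 19 lowered ones.

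**Figure D2:**
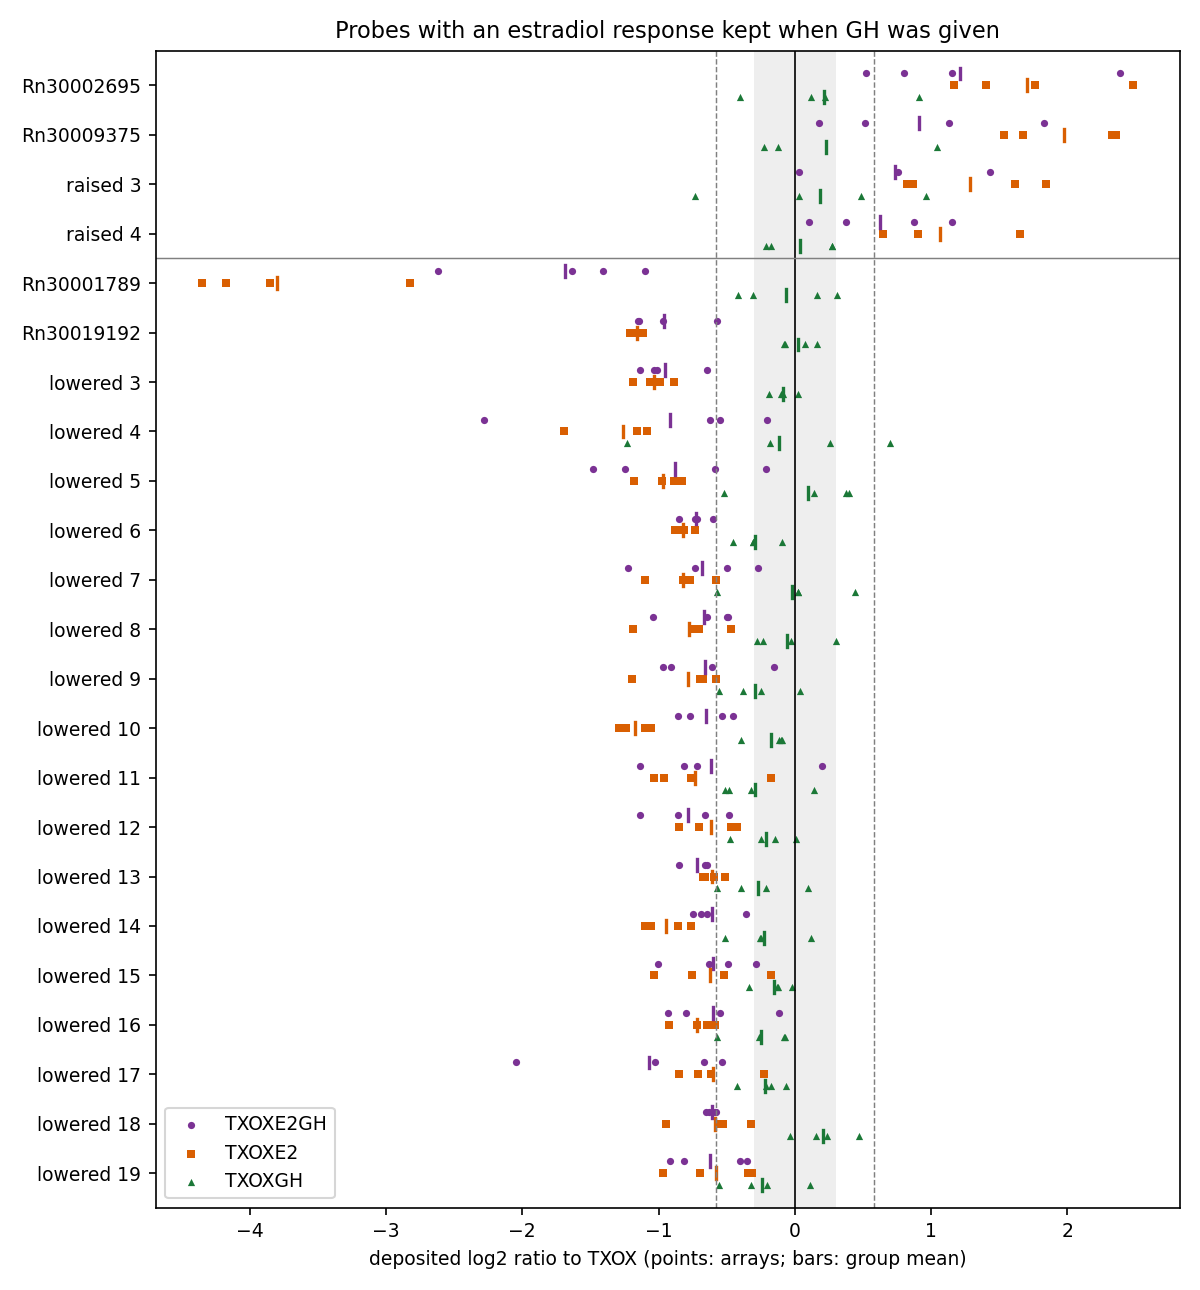
Deposited log2 ratio to TXOX of each of the 23 kept probes on every array (horizontal axis), ranked within each sign by the smaller of the TXOXE2GH and TXOXE2 mean ratios; points are arrays, short bars group means, dashed lines 0.58 in size, and the grey band is the window for TXOXGH. Lowered probes sit mostly between -0.5 and -1.2 in both groups given E2, with Rn30001789 far below, and single TXOXGH points lie outside the band for many probes.

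Averaged over the 4 raised probes on each array, the ratio was 0.86 ± 0.37 in TXOXE2GH, 1.53 ± 0.38 in TXOXE2 and 0.15 ± 0.24 in TXOXGH (SD over 4 arrays each). Over the 19 lowered probes it was -0.79 ± 0.10 in TXOXE2GH, -0.98 ± 0.11 in TXOXE2 and -0.14 ± 0.10 in TXOXGH. The lowered means ran from -0.93 to -0.71 over the TXOXE2GH arrays and from -1.06 to -0.81 over the TXOXE2 arrays, so they overlapped, and they lay apart from those of TXOXGH, which ran from -0.22 to 0.00. The 3 treatments chose these probes, so the distance from TXOXGH follows from the rule. Without Rn30001789 the lowered mean was -0.74 in TXOXE2GH and -0.82 in TXOXE2, and the difference TXOXE2GH minus TXOXE2 fell to 0.08, against 0.19 with it.

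The kept probes differed in how much of the E2 ratio remained. The TXOXE2GH ratio was smaller than the TXOXE2 ratio in 18 of 23, all 4 raised and 14 of 19 lowered. Among all 130 rows that reached 0.58 with the same sign in both, it was smaller in 51.5%. Those 130 include the 23, and 107 of them had a TXOXGH ratio outside the window, so nothing is read from the difference. The raised probes kept 46.3% to 71.3% of the TXOXE2 ratio. The lowered ones kept 44.5% to 178%, with a median of 86.1%. For 4 of these, of ranks 1, 4, 10 and 13, the TXOXE2 signal was above local background on no array, so their percentages, the lowest among them, rest on an unmeasured level. The other 15 ranged from 64.5% to 178%. The 5 lowered probes with a larger ratio in TXOXE2GH were led by the one of rank 17, with -2.04, -0.66, -0.53 and -1.03 in TXOXE2GH and -0.85, -0.23, -0.61 and -0.71 in TXOXE2, where the lowest value comes from 1 array and the groups overlap. The other 4, that of rank 13 included, kept 104% to 128%.

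The mean TXOXGH ratio had the sign of the E2 ratio in 20 of 23 probes (87%), all 4 raised and 16 of 19 lowered. It did so in 265 of the 317 rows (83.6%) and in 72.2% of all 11478, so nothing particular to the kept probes is read from the count. On arrays of a single dye orientation, a shared sign and a dye difference cannot be told apart. The median TXOXGH ratio was 0.20 over the raised probes and -0.18 over the lowered ones, and 9 lowered probes remained with the narrower limits of -0.2 and 0.2. Single TXOXGH arrays went past 0.58 in the E2 direction in 4 probes, on 1 array each. The fourth lowered probe had the widest spread of these, with 0.70, 0.26, -1.23 and -0.18 in TXOXGH and -0.20, -0.55, -2.28 and -0.62 in TXOXE2GH, both lowest on the arrays with replicate number 3. In TXOXE2 it had -1.09, -1.70, -1.09 and -1.16, and its Cy5 signal was above local background on none of those 4 arrays. There TXOX was 1.72-fold brighter as a filled-in fold, which is no strict limit.

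Arrays of one group did not always show a kept response. The ratio had the E2 direction on every measured TXOXE2GH array in 22 of 23 probes and on every TXOXE2 array in all 23. It passed 0.58 on every measured TXOXE2GH array in 4 probes, all lowered, and on every TXOXE2 array in 14. The lowered probe of rank 6 was among the steadiest, with -0.60, -0.73, -0.72 and -0.85 in TXOXE2GH, -0.85, -0.73, -0.88 and -0.82 in TXOXE2, and -0.10, -0.31, -0.45 and -0.31 in TXOXGH. The lowered probe of rank 11 was the exception in direction, with -1.14, -0.72, 0.20 and -0.81 in TXOXE2GH, -1.03, -0.18, -0.96 and -0.76 in TXOXE2, and -0.52, -0.33, 0.14 and -0.48 in TXOXGH.

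Group values were set against those of all rows with enough values. The deposited TXOXE2GH ratios lay wholly below the TXOXGH ratios in 10 lowered probes and in no raised probe; over all rows the 2 groups did not overlap in 4.2% (1.83% with TXOXE2GH above and 2.37% with it below). TXOXE2 and TXOXGH did not overlap in 15 probes (3 raised, 12 lowered), against 10.9% of all rows (5.85% with TXOXE2 above and 5.04% with it below). Since the rule sets TXOXGH apart from both other groups, nothing is read from these counts. TXOXE2GH and TXOXE2 did not overlap in 3 probes, all with less negative deposited ratios in TXOXE2GH, against 10.9% of all rows and 5.06% with TXOXE2GH above. They were Rn30001789 and the lowered probes of ranks 10 and 14. For Rn30001789 and the probe of rank 10, Cy5 was above local background on no TXOXE2 array. For the probe of rank 10 the filled-in fold in TXOXE2 (1.3, no strict limit) does not show that it was lowered less in TXOXE2GH. Paired by replicate number, TXOXE2GH differed from TXOXGH in the E2 direction in every measured pair in 19 of 23 probes (3 raised, 16 lowered), and 2602 of the 11285 rows that had at least 3 pairs (23.1%) differed one way, in either direction, in every pair. The rule favours the E2 direction in these pairs too, so nothing is read from this count.

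The ratios were then derived again from the deposited scanner intensities and fitted with limma over all probes. In that fit 20 of the 23 probes were called in TXOXE2GH against TXOX, where 3.8% of all probes tested were called at an adjusted p under 0.05 and 0.58 in size, and 23 of 23 in TXOXE2 against TXOX, where 6.23% were. None of the 23 was called in TXOXGH against TXOX, where 3.41% were, with 1 of the 23 and 23.1% of all probes at an unadjusted p under 0.05. These 3 comparisons are those of the rule and nothing is read from the counts, the first of which was 13 without TXOXE2GH replicate 2. Between TXOXE2 and TXOXGH 10 of 23 were called, with 1.11% called over all probes, and with the replicate number as a random block 13 of 23 and 1.73%. Leaving out 1 array gave 4 (without TXOXGH replicate 1) to 13 of 23. The rule sets TXOXE2 apart from TXOXGH in these probes, so nothing is read from these counts either.

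Between TXOXE2GH and TXOXGH, 0 of 18695 probes were called by limma (0%), none of the 23 among them, while 17 of the 23 and 5.94% of all probes had an unadjusted p under 0.05. With the replicate number as a block over all 12 arrays the count was 0, as a random block 2 and 1 of the 23. As a block shared by the TXOXE2GH and TXOXGH arrays alone, chosen after seeing the data, 30 probes (0.16%) and 6 of the 23 were called. Loess within each printed block and scaling between arrays gave 3 calls each, with 2 and 1 of the 23. Calls against TXOXGH liver therefore depended on the pairing of the arrays and on the normalization. Since the rule sets TXOXE2GH apart from TXOXGH as well, nothing is read from the counts among the 23.

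Between TXOXE2GH and TXOXE2, a comparison in which the dye cancels, 2 of the 23 probes were called, both higher in TXOXE2GH, with 0.708% called over all 17937 and 0.413% higher. They were Rn30001789, with a difference TXOXE2GH minus TXOXE2 of 2.70 (SE 0.36) on the log2 scale, and the lowered probe of rank 10, with 0.83 (SE 0.17). The call of the second was lost with no background correction, with scaling, with loess within each printed block and in the deposited table, and without TXOXE2GH replicate 1, 2 or 4 or TXOXE2 replicate 1, 3 or 4. In both the TXOXE2 signal in Cy5 was above local background on no array, so these differences have no exact size. For the probe of rank 10 the sign is not set either. Its filled-in TXOXE2 fold of 1.3, which is no strict limit, is smaller than its lowering in TXOXE2GH (log2 ratio -0.89). In TXOXE2GH minus TXOXE2 minus TXOXGH, which is 0 where the effects of E2 and GH add up and from which the dye does not cancel, the same 2 probes were called, with 0.896% over all. Only 1 of the 23 was called there when any array other than TXOXE2GH replicates 3 and 4 and TXOXE2 replicate 2 was left out. The replicate block raised the counts over all probes to 215 between TXOXE2GH and TXOXE2 and to 400 for the departure from addition, with 2 of the 23 in each. For Rn30019192 the difference TXOXE2GH minus TXOXE2 was 0.21 (SE 0.16), for Rn30002695 -0.49 (SE 0.39) and for Rn30009375 -1.04 (SE 0.42). A difference that was not called is not shown to be absent: the SE of this difference ran from 0.14 to 0.51 over the 23 probes, with 4 arrays per group.

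The 2 channels were looked at separately, since a ratio can move through the treated or through the TXOX liver. Between TXOXE2GH and TXOXGH arrays the Cy5 level differed more than the Cy3 level in 19 of 23 probes, against 55.5% of all rows, and between TXOXE2 and TXOXGH arrays in 18 of 23, against 53.4%. The ratios that chose the probes are made from these channels, while the other rows were not chosen, so nothing is read from the counts. For Rn30001789 the difference TXOXE2GH minus TXOXGH was -1.57 in Cy5 and 0.11 in Cy3 on the log2 scale. The difference TXOXE2 minus TXOXGH was -4.42 in Cy5 and -0.03 in Cy3, where the Cy5 value is set against a TXOXE2 signal not above local background and gives no exact size. Exceptions were found among both signs. The fourth raised probe differed by -0.19 in Cy5 and -0.93 in Cy3 between TXOXE2GH and TXOXGH arrays, so there both levels were lower and Cy3 more so. Its Cy3 level had an SD of 0.79 over the 12 arrays, and the cause of the lower levels was not tested.

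**Figure D3:**
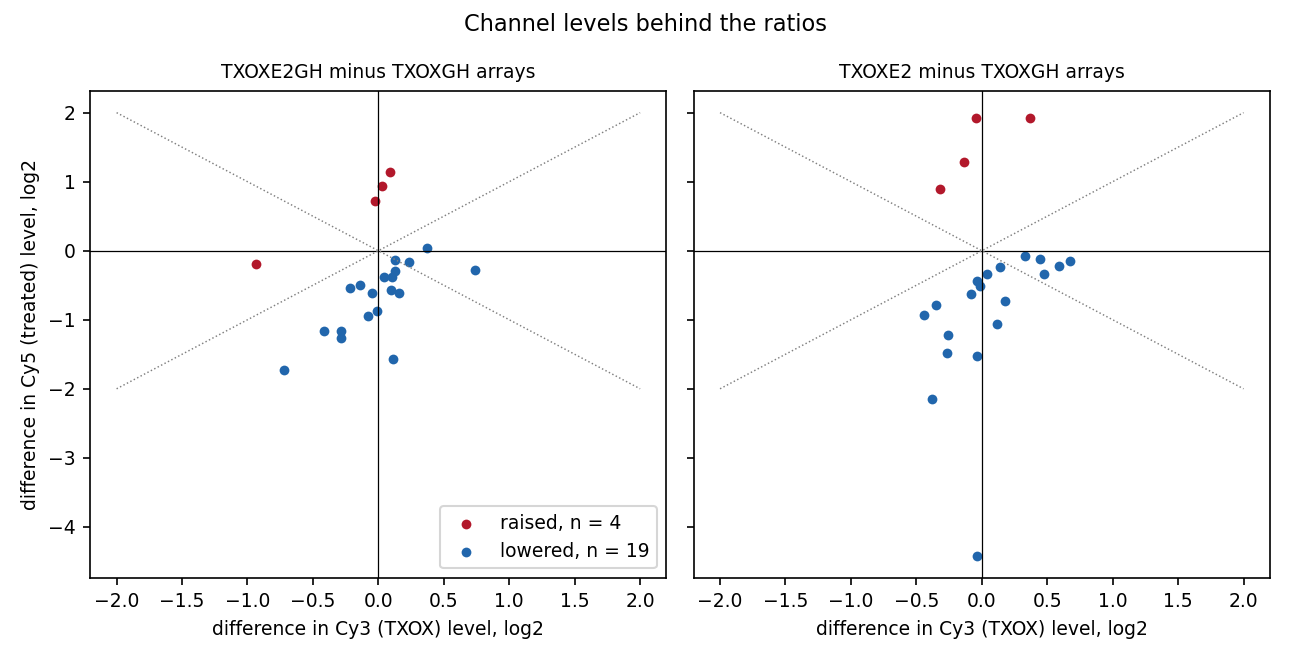
Difference between arrays of 2 treatments in the normalized Cy5 level of the treated liver (vertical axis, log2) and in the Cy3 level of TXOX liver (horizontal axis, log2) for the 23 kept probes, TXOXE2GH minus TXOXGH on the left and TXOXE2 minus TXOXGH on the right. Points above or below both dotted diagonals moved more in Cy5 than in Cy3, which holds for 19 probes on the left and 18 on the right.

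The lowered probes were also set against their position on the slide. Probes are printed in 48 blocks, and the median ratio of a block ranged from -0.19 to 0.17 in TXOXE2GH, from -0.38 to 0.39 in TXOXE2 and from -0.19 to 0.34 in TXOXGH. The 14 blocks with a TXOXE2 median at or under -0.1 held 9 of the 19 lowered probes, none of the 4 raised ones and 28.8% of all rows. The 23 probes came from 16 blocks, with at most 2 in one block. Derived again with loess over the whole array, 22 of the 23 met the rule (4 raised, 18 lowered). With loess within each block, 14 of the 23 did (4 raised, 10 lowered), and the 9 lost were of ranks 6, 9, 11, 13, 14, 15, 17, 18 and 19 among the lowered probes. Under block loess the mean TXOXE2 ratio was still at least 0.58 in size in 17 probes, the TXOXE2GH ratio in 19, and TXOXGH stayed in the window in 20. Rn30001789, Rn30019192, Rn30002695 and Rn30009375 met the rule under both.

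**Figure D4:**
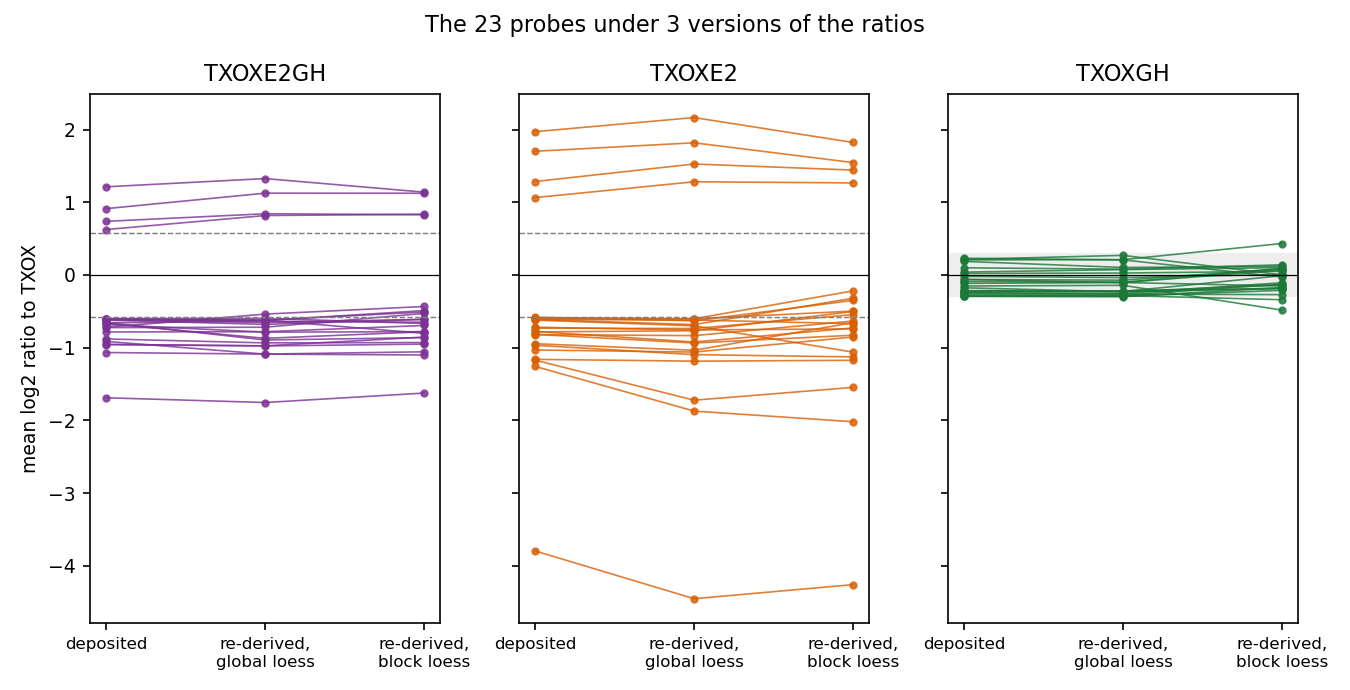
Mean log2 ratio to TXOX of the 23 kept probes in TXOXE2GH, TXOXE2 and TXOXGH (panels) as deposited, derived again with loess over the whole array, and derived again with loess within each printed block; 1 line per probe, dashed lines at 0.58 in size, grey band for the TXOXGH window. Lines move little between the first and the second version, and in TXOXE2 several lowered probes cross above -0.58 in the third.

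Brightness differed between the 2 signs. Of the 23 probes, 13 were above local background in both channels on all 12 arrays (1 raised, 12 lowered), against 32.5% of all rows. In 4 lowered probes, those of ranks 1, 4, 10 and 13, Cy5 was above background on no TXOXE2 array, and for the last of these on no TXOXE2GH array either. As filled-in folds, TXOX was 1.3-fold brighter than TXOXE2 for the probe of rank 10 and 1.35-fold for that of rank 13. Neither is a strict limit. Only 1 probe, lowered and of rank 16, had saturated pixels, on 2 arrays, against 0.897% of all rows.

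As the rule used every array, it was run again with each of the 12 arrays left out, and the chosen probes were then read on the array left out. It chose 21 to 33 probes, of which 17 to 23 were among the 23. On the 4 TXOXE2GH arrays in turn, 94 of 114 readings (82.5%) had the E2 direction and 46 (40.4%) also passed 0.58, and the median per array was 0.37 to 0.65, against 0.67 to 0.74 on the arrays that chose the probes. On the TXOXE2 arrays 94 of 101 readings (93.1%) had the E2 direction and 69 (68.3%) passed 0.58. On the TXOXGH arrays 84 of 103 readings (81.6%) had the E2 direction and 45 (43.7%) lay inside the window, and the median was 0.12 to 0.41. The share in the E2 direction was thus close on TXOXE2GH (82.5%) and TXOXGH arrays (81.6%) and does not set these groups apart. No share over all rows was taken for these readings. The mean TXOXGH and TXOXE2 ratios shared their sign in 72.2% of all 11478 rows. The same probes recur in several of these runs, so the readings are not independent. For a TXOXE2GH or TXOXGH array, the array of the other group with the same replicate number stayed in the rule. On held-out arrays the response in TXOXE2GH was smaller than on those that chose the probes, and the GH ratio was larger in the E2 direction on 3 of 4 arrays. The rule required large TXOXE2GH and small TXOXGH ratios on the other arrays, which favours both differences, so nothing more is read from them.

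**Figure D5:**
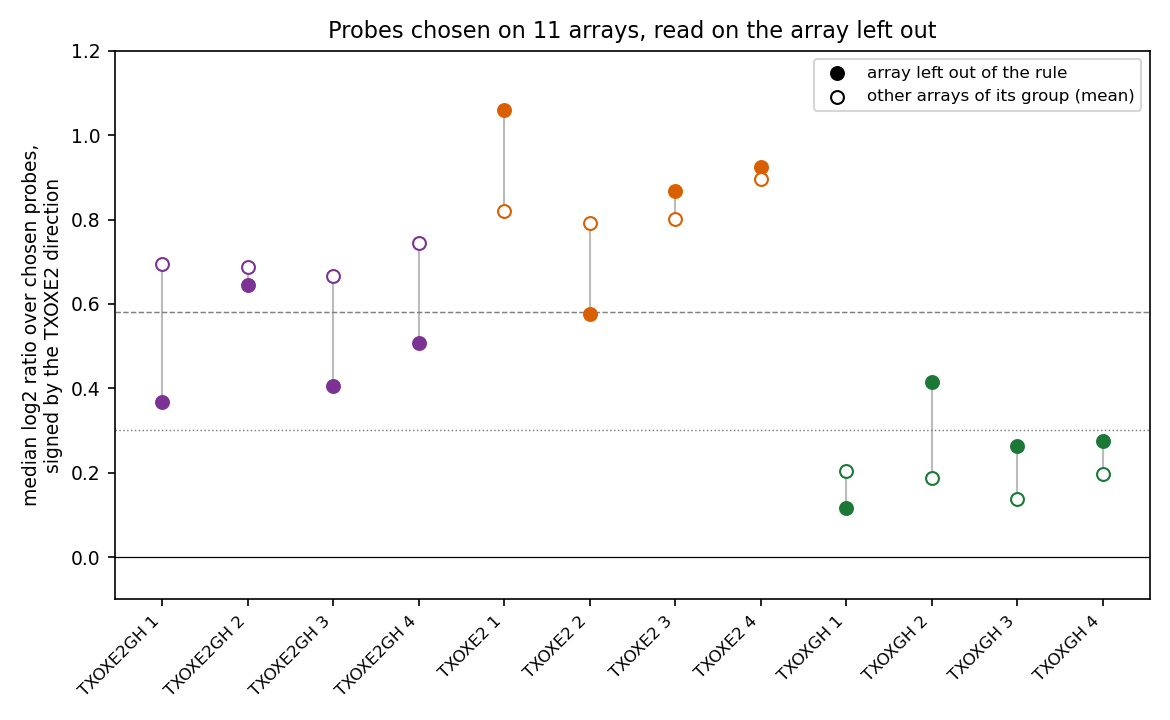
Median log2 ratio to TXOX over the probes chosen on 11 arrays, counted positive in the direction of the TXOXE2 ratio (vertical axis), on the array left out (filled) and as the mean of the other arrays of its group (open), for each array left out (horizontal axis). Dashed and dotted lines mark 0.58 and 0.3; all 4 filled TXOXE2GH points lie below their open points, and 1 TXOXGH point, that of replicate 2, lies above 0.3.

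Across the 12 arrays 19130 to 22346 probe spots were unflagged and 6361 to 13917 were above local background in both channels, fewest on the second TXOXE2 array. Deposited ratios and those derived again correlated over rows at 0.8897 to 0.9874 per array, lowest on the fourth TXOXGH array. Without the second TXOXE2 array the rule chose 32 probes (4 raised, 28 lowered), with 23 of the 23 among them, and without the fourth TXOXGH array 25 (4 raised, 21 lowered), with 20. The labels give individual animals per array but not which TXOX animal was on which, and p-values measure the spread between these arrays.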

How the data were processed

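Liver RNA of 12 treated rats was hybridised against TXOX liver RNA on 12 2-colour arrays of 70-base rat oligonucleotides, read with a GenePix scanner. The authors normalized the raw intensities by LOWESS, and the deposited series table holds log2 ratios, taken as Cy5 (treated) over Cy3 (TXOX) after setting each column against the scanner values; 1894 of its 22163 rows are empty on every array. The deposited scanner files give per spot the median foreground and background intensity of each channel, the percent of pixels above background or saturated, and a flag score; these values are not normalized. The build and annotation behind the probe names are not given in the sources used here.

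The rule that chose the 23 probes was applied to the deposited log2 ratios. The members and lists were chosen with earlier results of these data known. For the fit, intensities were corrected by normexp (offset 50), flagged, control and empty spots (554 of 27648 per array) were left out, ratios were normalized by loess within each array and spots of 1 probe were averaged. Probes with values on 3 of 4 arrays of each group compared were tested in 1 limma fit (limma 3.58.1, R 4.3.3) with a trend on mean intensity and Benjamini-Hochberg adjustment over all probes, called at adjusted p under 0.05 and, against TXOX, 0.58 in size; limma took the place of the methods' SAM. The fit was tested on simulated ratios with independent noise on each array. These held no paired arrays, block effects or dye differences, so the test does not bear on those. Channel levels are loess-normalized and quantile-scaled on mean intensity. A filled-in fold is the bright channel's mean against the mean of, per array, the lowest level that passed or the probe's own if higher. It is no strict limit, since a spot can fail the pixel test above that lowest level. Arrays set the precision by their number; no depth applies.

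Probes were ranked within each sign by the smaller of their TXOXE2GH and TXOXE2 ratios, and the first 2 of each sign are named; others are given by rank, some chosen for description after their values were seen. No gene list or sequence was used, as probe names were not paired with genes. Replicate numbers of TXOXE2GH and TXOXGH were taken to pair arrays, from the data alone: deviations from group means correlated at 0.306, 0.388, 0.453 and 0.329, each best with its own number. Those of TXOXE2 ran from -0.175 to 0.21 with TXOXGH and from -0.148 to 0.108 with TXOXE2GH, and not all were best with their own number. Alternatives were another background correction, normalization, source, filter, limits and block, and leaving out each array; removal of block medians, a block for 2 groups and leaving out the first probe were added after seeing the data.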

Additional observations from a re-analysis of the deposited data

Results flagged for a closer look

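In groups of 4 arrays, 71 sets of deposited ratios were examined for 1 array far from the other 3, and 2 were found; chance gives about 1 in 20. The lowered probe of rank 4 had a log2 ratio of -1.70 on the second TXOXE2 array, with the other 3 between -1.16 and -1.09. The lowered probe of rank 10 had -0.39 on the second TXOXGH array, with the other 3 between -0.11 and -0.10.

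Of the 23 probes, 2 departed from the sum of the separate E2 and GH ratios, which was described and not used as a test because the rule used the same ratios. TXOXE2GH minus TXOXE2 minus TXOXGH was 2.77 (SE 0.44) for Rn30001789 and 1.06 (SE 0.21) for the lowered probe of rank 10. In both, Cy5 was above local background on no TXOXE2 array, so the TXOXE2 level was not measured and neither departure has an exact size. For the probe of rank 10 the filled-in TXOXE2 fold of 1.3, no strict limit, is smaller than its lowering in TXOXE2GH (log2 ratio -0.89). The sign of its departure is therefore not set either. Neither probe was called with loess within each printed block.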

How the results depend on the processing

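Leaving out each array in turn, the number of kept probes ran from 4 to 10 raised and from 16 to 28 lowered, with 10 raised without TXOXE2GH replicate 1. Under other limits and sources the raised count was 7 with no background correction, 84 with background subtracted, 7 with loess within each printed block, 1 where all 4 arrays were required, 8 with medians, 1 at a threshold of 1, 2 with TXOXGH within 0.2 and 12 within 0.5. The lowered count was 116 with background subtracted, 1 at a threshold of 1, 9 with TXOXGH within 0.2 and 37 within 0.5. Of the 19 lowered probes, 10 were shared under block loess and 11 with medians or block medians taken off.

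Means over the same probes with background subtracted were 1.32 in TXOXE2GH and 2.18 in TXOXE2 for the raised, and -0.94 in TXOXE2GH, -1.39 in TXOXE2 and 0.45 for TXOXE2GH minus TXOXE2 for the lowered. The lowered TXOXE2 mean was -1.12 with ratios derived again, -0.81 over probes above local background on every array and -0.82 without the first lowered probe. Leaving out each array, the raised means ran from 0.75 to 0.98 in TXOXE2GH, 1.35 to 1.65 in TXOXE2 and 0.05 to 0.22 in TXOXGH, with TXOXE2GH minus TXOXE2 from -0.79 to -0.49. The lowered means ran from -0.82 to -0.74, -1.03 to -0.95 and -0.19 to -0.11 in the same order of groups, with TXOXE2GH minus TXOXE2 from 0.16 to 0.24.

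Calls over all probes depended on the processing, and the cause was not tested beyond the construction of each setting. In TXOXE2GH against TXOX 719 (3.8%) became 468 (2.47%) with no background correction and 449 (3.45%) with the deposited table. It became 244 (6.45%) over probes above local background on every array, which leaves 3785 probes and 13 of the 23 to test, all 13 called. Over these bright probes a lower count was thus a higher share. It was 7.11% in TXOXE2 and 4.07% in TXOXGH against TXOX, where 6.23% and 3.41% were called in the main fit. Between TXOXE2GH and TXOXE2 it was 1.32% (main fit 0.708%), between TXOXE2 and TXOXGH 2.01% (1.11%) and for the departure 1.66% (0.896%). In TXOXE2 against TXOX 1202 became 791 with no background correction, 2494 with it subtracted, 415 with block loess, 797 with scaling, 665 with the deposited table and 269 over bright probes (13 of the 23). In TXOXGH against TXOX 716 became 361, 369, 351 and 154 with no background correction, block loess, the deposited table and bright probes. Between TXOXE2GH and TXOXE2 127 became 67 with scaling and 50 over bright probes. Of the 23, 1 was called with no background correction, block loess, scaling or the deposited table, and 0 among the 13 bright ones. Between TXOXE2GH and TXOXGH 0 became 3 with block loess, scaling or bright probes (2, 1 and 2 of the 23). Between TXOXE2 and TXOXGH 209 became 76 over bright probes (6 of the 23), and 5 of the 23 were called with scaling. The departure count of 160 became 65 with background subtracted, 8 with block loess, 36 with scaling and 63 over bright probes, with 0 of the 23 in the last 3.

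With the replicate block, as a fixed term over all 12 arrays, 215 probes were called between TXOXE2GH and TXOXE2 and 400 for the departure. As a random term the counts were 225, 2 between TXOXE2GH and TXOXGH (1 of the 23), 327 between TXOXE2 and TXOXGH and 322 for the departure. Pairing only TXOXE2GH with TXOXGH gave 449, 30 (6 of the 23), 408 and 823. The replicate block moved no other count of calls by over 1.5 times.

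Leaving out each array, calls over all probes ran from 470 to 1027 (13 to 20 of the 23) in TXOXE2GH, 842 to 1232 (18 to 23) in TXOXE2 and 425 to 811 (0 to 0) in TXOXGH against TXOX. They ran from 41 to 228 (1 to 2) between TXOXE2GH and TXOXE2, 0 to 2 (0 to 1) between TXOXE2GH and TXOXGH, 111 to 250 (4 to 13) between TXOXE2 and TXOXGH, and 22 to 203 (1 to 2) for the departure. The lowest counts came without TXOXE2GH replicate 2 (470), TXOXE2 replicate 3 (842 and 111), TXOXGH replicate 4 (425 and 22) and TXOXE2GH replicate 1 (41). TXOXE2GH minus TXOXE2 of the 4 named probes kept its sign and its call under every alternative in which the probe was tested. Leaving out each array it ran from -0.89 to -0.19 for Rn30002695, -1.42 to -0.82 for Rn30009375, 2.49 to 3.10 for Rn30001789 and 0.08 to 0.28 for Rn30019192.

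Probes near local background give less precise ratios, and 10 of the 23 were not above it in both channels on every array. Ratios to TXOX also carry any dye difference, since no dyes were exchanged.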
